A study of Homo sapiens with 18 samples.

Results

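The genes described here are 10 regulators of the mitochondrial route to apoptosis that belong to the BCL2 family. They were chosen by symbol, as 3 pro-survival genes (BCL2, BCL2L1 and MCL1) and 7 BH3-only genes (BCL2L11, PMAIP1, BIK, BMF, HRK, BID and BAD), out of 58336 gene identifiers in the count tables, and each symbol was found in the tables of all 3 lines. RNA sequencing measured them in TC-32, TC-71 and A673, established lines of Ewing sarcoma, a cancer of bone or soft tissue in children and young adults that is driven by the fusion protein EWSR1::FLI1. Cells of each line were reverse transfected with 20 nM of a small interfering RNA, either a negative control (siNeg) or one against FLI1 (siFLI1). The siRNA sequences are not given in the sources used here. Whether siFLI1 reaches the fusion transcript and any unfused FLI1 transcript alike was therefore not checked. There were 3 libraries of each siRNA in each line, and so 18 libraries in 6 groups. TC-32 and TC-71 were grown in RPMI and A673 in DMEM, all with fetal bovine serum and a prophylactic against mycoplasma, and no untransfected cells are among these groups. The columns of TC-32 and TC-71 carry 48 h, and the columns of A673 carry no time. The labels do not say whether replicates came from separate cultures, so p-values measure the spread between these libraries, which may be technical.

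Proteins of the BCL2 family decide whether the outer membrane of mitochondria stays closed. BCL2, BCL-XL (from BCL2L1) and MCL1 keep it closed by holding the effectors BAX and BAK1, and BH3-only proteins free the effectors, either by occupying the grooves of the pro-survival proteins or by activating the effectors directly. Once the membrane opens, cytochrome c reaches APAF1 and caspases are switched on. The BH3-only genes report different stresses: BCL2L11 (BIM) responds to loss of growth factor signalling, PMAIP1 (NOXA) and BBC3 (PUMA) to p53 and other stresses, BMF to loss of attachment, and BID to death receptors through caspase-8. Much of the control of these proteins, such as phosphorylation of BAD, cleavage of BID and the fast turnover of MCL1, takes place after transcription and is not seen in RNA.

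Libraries held 24102487 to 33669271 counts for TC-32, 19685354 to 37234528 for TC-71 and 114564479 to 120993595 for A673. The target of the siRNA was lower with siFLI1 in every library, with log2 fold changes of -1.03 for TC-32, -1.47 for TC-71 and -2.09 for A673 (edgeR adjusted p = 1.85e-13, 8.88e-18 and 2.02e-16). Of 8 markers of Ewing sarcoma, 8 had counts in TC-32 and in A673 and 7 in TC-71, where CD99 was listed at 0 in all 6 libraries. TC-71 was counted with Subread and the other lines with RSEM. The part of this in the 0 of CD99 was not tested, and that 0 is not read as absent RNA. The Ewing sarcoma markers fell with siFLI1 for 7 of 8 in TC-32, 7 of 7 tested in TC-71 and 8 of 8 in A673. The exception was FCGRT in TC-32, which rose by 0.94 on the log2 scale. Markers of fibroblasts (COL1A1, COL1A2, LUM and DCN) moved with the siRNA: 4 of 4 rose in TC-32, 4 of 4 in TC-71 and 3 of 4 in A673. Their summed level in CPM (counts scaled to library size by TMM factors, the unit used throughout) went from 75.2 to 79.5 up to 3076 to 3742 in TC-32, from 100.4 to 103 up to 2515 to 2585 in TC-71 and from 893 to 931 up to 5442 to 6285 in A673. The summed markers of epithelium, mostly KRT8 and KRT18, went from 88.7 to 103 up to 124 to 141 CPM, from 158 to 159 up to 407 to 422 CPM, and from 294 to 316 up to 371 to 416 CPM in the same order of lines. Summed markers of leukocytes, endothelium and skeletal muscle were at or below 13.1, 2.89 and 6.91 CPM in any library. CD3E was at 0 in TC-32 and A673, MYOD1 and MYOG at 0 in TC-71 and MYOG at 0 in A673. The leukocyte sum went from 1.81 to 3.35 up to 7.39 to 9.47 CPM in TC-32. In A673 it went from 6.41 to 7.94 up to 11.7 to 13.1 CPM, and in TC-71 the groups overlapped. The rise was mostly CD68, from a mean of 1.90 to 7.95 CPM in TC-32 and from 6.83 to 12.2 CPM in A673. PTPRC was at most 0.153 CPM and CD3E at most 0.0506 CPM in any library. CD14 was not called in TC-32 and rose from 0.0944 to 0.256 CPM in A673. The muscle sum went from 0.264 to 0.379 up to 5.48 to 6.91 CPM in TC-32. It was also higher with siFLI1 in the other lines, at most 0.481 CPM. The rise of the muscle sum was mostly DES, from a mean of 0.312 to 5.93 CPM in TC-32. MYOD1 and MYOG were at most 0.135 CPM in any library. The endothelial sum was lower with siFLI1 in TC-32 and higher in TC-71 and A673. Its genes did not move together: PECAM1 fell and CDH5 rose in TC-32 (log2 fold changes of -2.28 and 2.28). In A673 PECAM1 fell (-1.10), while CDH5 (2.06) and VWF (2.77) rose. The part of these shifts in the results on the BCL2 family was not tested.

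With siFLI1, BCL2L1, MCL1 and BCL2L11 rose in all 3 lines, and BCL2 fell in TC-32 and A673. BMF rose strongly in TC-32 and TC-71 and fell in A673, and PMAIP1 and BID also differed in direction or call between lines. Changes were called at an adjusted p under 0.05 in edgeR's quasi-likelihood test, adjusted by Benjamini-Hochberg over all genes tested in a line. In TC-32, 2 of 3 pro-survival genes were higher and 1 was lower, and of the 5 BH3-only genes tested 3 were higher, 1 lower and 1 not called. BIK and HRK did not pass the low-count filter there; with no such filter 9 family genes were called, 7 of them higher, BIK and HRK among these. In TC-71, 2 pro-survival genes were higher and 1 was not called, and of 7 BH3-only genes 4 were higher, 2 lower and 1 not called. In A673, 2 pro-survival genes were higher and 1 lower, and of 7 BH3-only genes 4 were higher, 1 lower and 2 not called. These counts stand against a response of most genes tested. Calls in either direction took in 81.4% of tested genes for TC-32 (41.3% higher, 40.1% lower), 71.9% for TC-71 (36.8% higher, 35% lower) and 71% for A673 (35.6% higher, 35.4% lower). No siFLI1 library overlapped the siNeg libraries for 7 of 8 tested family genes of TC-32, 9 of 10 of TC-71 and 8 of 10 of A673, beside 82.6%, 73.9% and 73.6% of all tested genes. A call alone therefore does not set the family apart, and the sizes and directions by gene follow. The median log2 fold change of tested pro-survival genes was 0.35 for TC-32, 0.58 for TC-71 and 0.45 for A673, and that of tested BH3-only genes was 0.26, 0.75 and 0.23, beside 0.022, 0.018 and -0.0066 over all genes tested. The BH3-only median of TC-32 leaves out BIK and HRK; it was 1.06 with no low-count filter and between 0.14 and 1.08 on leaving out a library, so it is not read against the pro-survival median. Scaling by library size alone moved the A673 median over all genes to -0.11 and the share of calls that were higher from 50.1% to 40.9%, but turned no family gene's direction within a line. In these bulk samples, less RNA of a gene per cell and fewer cells that hold it cannot be told apart.

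**Figure D1:**
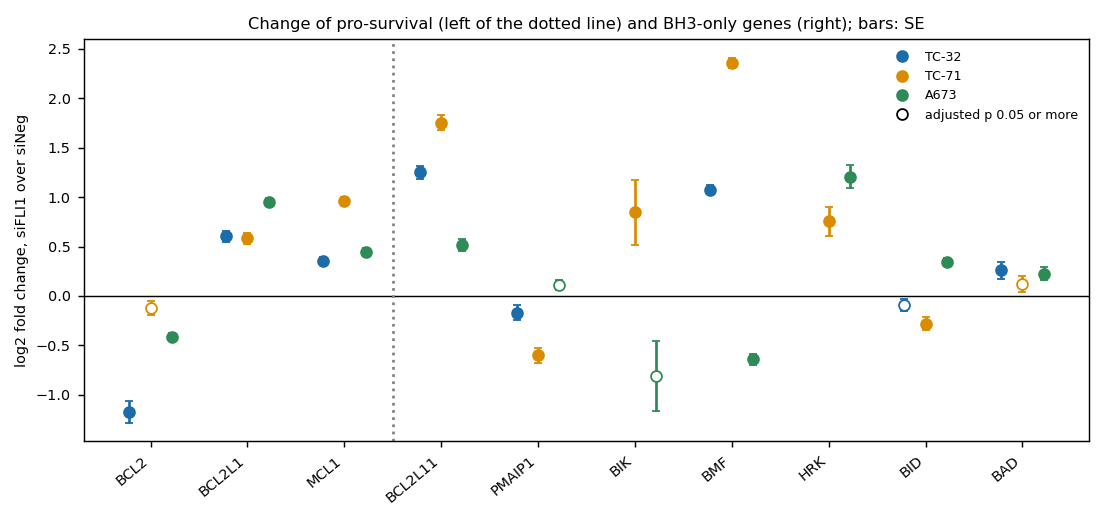
Log2 fold change of each family gene, siFLI1 over siNeg (vertical axis), with its SE, in TC-32 (blue), TC-71 (orange) and A673 (green); open points were not called. BMF spans the widest range, from 2.36 in TC-71 to -0.64 in A673, while BCL2L1, MCL1 and BCL2L11 lie above 0 in all 3 lines.

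Among the 3 pro-survival genes chosen here, BCL2 was the one that went down. BCL2L2, a pro-survival gene not among them, is given below. BCL2 (ENSG00000171791.12; chromosome 18, 63123346 to 63320128, minus strand; all positions are on GRCh38 from GENCODE release 44) encodes the founding member of the family, anchored in the mitochondrial and endoplasmic reticulum membranes. In TC-32 it stood at 24.8, 25.8 and 23.5 CPM with siNeg and at 13.0, 8.67 and 11.3 CPM with siFLI1. The siFLI1 libraries were all well below the siNeg libraries, with some spread among themselves, and the log2 fold change was -1.18 (SE 0.108, adjusted p = 1.43e-08 in edgeR). In A673 it stood at 52.5, 54.8 and 54.6 CPM with siNeg and at 41.0, 40.7 and 39.6 CPM with siFLI1, again without overlap, a log2 fold change of -0.42 (SE 0.0409, adjusted p = 1.35e-07 in edgeR). In TC-71 the levels were 26.4, 23.4 and 25.6 CPM against 23.4, 22.9 and 23.0 CPM. These groups touch without overlapping, since siNeg replicate 2 lies above siFLI1 replicate 1 by less than the rounding, and the log2 fold change of -0.13 (SE 0.0699, adjusted p = 0.107 in edgeR) was not called. Without siNeg replicate 2 it was -0.18 and called.

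BCL2L1 went the other way in every line. BCL2L1 (ENSG00000171552.12; chromosome 20, 31664452 to 31723989, minus strand) gives rise by splicing to BCL-XL, which blocks apoptosis, and to the short form BCL-XS, which opposes it; counts per gene cannot tell these apart. In TC-32 its level was 42.8, 41.9 and 44.2 CPM with siNeg and 63.6, 68.3 and 63.9 CPM with siFLI1. In TC-71 it was 46.8, 44.4 and 49.1 CPM against 71.7, 72.0 and 67.2 CPM. In A673 it was 84.7, 77.3 and 79.4 CPM against 149.7, 160.2 and 156 CPM. Every siFLI1 library lay above every siNeg library of its line. The log2 fold changes were 0.60 (SE 0.0554, adjusted p = 3.87e-10 in edgeR), 0.58 (SE 0.0552, 1.24e-10) and 0.95 (SE 0.0431, 7.21e-12), so the level in A673 came to 1.93 times that with siNeg. A share of 41.3% of its exon bases lies opposite exons of the noncoding gene ABALON, which held at most 3 counts in any library.

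MCL1 was the most abundant of the 3 chosen pro-survival genes per length of exon in each line, and it rose in all 3 lines. MCL1 (ENSG00000143384.12; chromosome 1, 150560895 to 150579738, minus strand) encodes a short-lived protein that restrains BIM, NOXA and BAK1, and it also has a short splice form that these counts include. Its level in TC-32 was 161, 167 and 166 CPM with siNeg and 215, 207 and 207 CPM with siFLI1. TC-71 had 149, 151 and 142 CPM with siNeg and reached 278, 289.6 and 293 CPM. A673 had 183, 191 and 185 CPM against 265, 244 and 256 CPM. No group overlapped its counterpart, and the rise was largest for TC-71, where log2 fold change was 0.96 (SE 0.0435, adjusted p = 4.33e-18 in edgeR), beside 0.35 for TC-32 (SE 0.0421, 4.21e-08) and 0.45 for A673 (SE 0.0385, 2.56e-08). MCL1 shares 5.27% of its exon bases with ADAMTSL4-AS1 on its own strand, whose counts went from 4 to 5 up to 25 to 35 in TC-32, from 10 to 15 up to 70 to 107 in TC-71 and from 41 to 66 up to 126 to 139 in A673. MCL1 itself held 2991 to 30891 counts per library. Exons of ADAMTSL4 lie opposite 0.691% of the MCL1 exon bases. Its counts went from 34 to 41 up to 223 to 302 in TC-32 and from 62 to 95 up to 212 to 323 in TC-71. In A673 they went from 15 to 21 up to 442 to 575. The part of these overlaps in the MCL1 values was not tested.

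**Figure D2:**
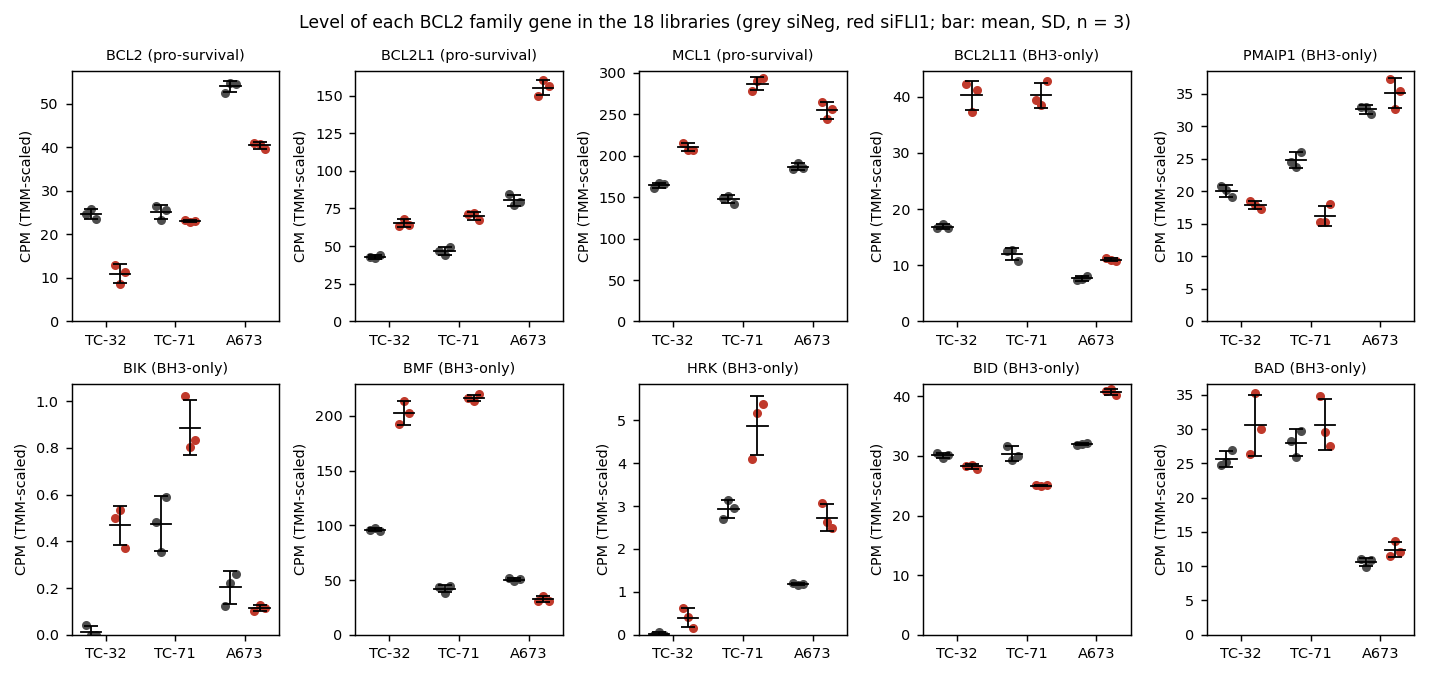
Level in CPM (vertical axis, from 0; scaled with TMM factors) of the 10 family genes in each library, grey for siNeg and red for siFLI1, with mean and SD of 3. BMF is the gene whose red points lie above the grey ones in TC-32 and TC-71 and below them in A673.

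Of the BH3-only genes tested in all 3 lines, BCL2L11 was the one with a called rise in each. BCL2L11 (ENSG00000153094.22; chromosome 2, 111119378 to 111168444, plus strand) encodes BIM, which binds every pro-survival protein of the family and can activate BAX and BAK1; its splice forms are counted together. In TC-32 it stood at 16.6, 17.4 and 16.7 CPM with siNeg and at 42.2, 37.3 and 41.2 CPM with siFLI1. In TC-71 it stood at 12.5, 12.8 and 10.8 CPM and then at 39.4, 38.5 and 42.8 CPM. In A673 it stood at 7.42, 7.47 and 8.14 CPM and then at 11.4, 10.9 and 10.8 CPM. The siFLI1 libraries lay above the siNeg libraries in every line, by the smallest margin in A673. The log2 fold changes were 1.25 (SE 0.0694, adjusted p = 2.11e-14 in edgeR), 1.75 (SE 0.0769, 2.00e-18) and 0.52 (SE 0.0617, 1.31e-06). Exons of the noncoding gene MIR4435-2HG lie opposite 10.8% of the BCL2L11 exon bases, and its counts were higher with siFLI1 too, from 442 to 554 up to 604 to 704 in TC-32, from 321 to 560 up to 1928 to 3084 in TC-71 and from 3014 to 3071 up to 6728 to 6832 in A673. The libraries were made with a stranded kit, but whether counting used strand is not given in the sources used here, and the part of this overlap was not tested.

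BMF showed both the largest rise among the tested family genes and a fall. BMF (ENSG00000104081.13; chromosome 15, 40087890 to 40108892, minus strand) encodes a BH3-only protein that can be held by the myosin V motor through dynein light chain 2 and is released when cells lose attachment. With siNeg it stood at 96.1, 97.6 and 94.7 CPM in TC-32, at 43.9, 38.1 and 44.1 CPM in TC-71 and at 51.5, 48.99 and 50.9 CPM in A673. With siFLI1 it stood at 192, 214 and 202 CPM in TC-32, at 216, 214 and 219.7 CPM in TC-71 and at 30.6, 35.4 and 31.1 CPM in A673. All siFLI1 libraries lay above the siNeg libraries in TC-32 and TC-71, whereas all 3 A673 libraries with siFLI1 lay below all 3 with siNeg. The log2 fold changes were 1.08 in TC-32 (SE 0.0472, adjusted p = 1.80e-16 in edgeR), 2.36 in TC-71 (SE 0.0526, 1.52e-25) and -0.64 in A673 (SE 0.0536, 1.83e-08). The antisense gene BMF-AS1, opposite 8.46% of its exon bases, held at most 2 counts in any library.

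The 250 bases before the start site are shown for the genes with the largest fall and the largest rises, BCL2, BCL2L11 and BMF, from RefSeq on GRCh38.p14. They were searched on both strands for GGAA, the core that ETS factors such as FLI1 bind, for GGAAGGAA, the repeat unit through which the fusion protein is known to act, and for GTAAACA, a core bound by forkhead factors. Each GGAAGGAA also counts as GGAA. Capitals mark GGAA or its complement TTCC, and GTAAACA. RefSeq promoter windows were matched for 8 of the 10 genes.

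BCL2, chr18:63319770-63320019, minus strand: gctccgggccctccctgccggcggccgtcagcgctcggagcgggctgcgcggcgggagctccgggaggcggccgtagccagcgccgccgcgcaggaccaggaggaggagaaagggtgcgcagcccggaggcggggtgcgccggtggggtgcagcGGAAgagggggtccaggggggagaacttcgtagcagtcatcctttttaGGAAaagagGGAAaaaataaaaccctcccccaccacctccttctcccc
BCL2L11, chr2:111120664-111120913, plus strand: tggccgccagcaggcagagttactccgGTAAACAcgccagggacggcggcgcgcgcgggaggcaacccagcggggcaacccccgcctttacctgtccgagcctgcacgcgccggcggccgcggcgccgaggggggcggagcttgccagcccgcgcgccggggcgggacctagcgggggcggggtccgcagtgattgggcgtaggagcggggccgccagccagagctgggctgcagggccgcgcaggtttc
BMF, chr15:40108880-40109129, minus strand, the start nearer to the annotated gene end of 2 listed: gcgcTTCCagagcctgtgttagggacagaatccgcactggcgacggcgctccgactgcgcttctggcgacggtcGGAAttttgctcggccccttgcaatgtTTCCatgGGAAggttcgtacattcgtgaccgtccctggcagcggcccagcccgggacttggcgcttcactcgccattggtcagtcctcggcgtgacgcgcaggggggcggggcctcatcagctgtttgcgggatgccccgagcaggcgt

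The BCL2 window, with 70% G and C, holds 3 GGAA and the BMF window 4, a motif found in 92.7% of 35116 RefSeq windows of this length. The BCL2L11 window, with 76.8% G and C, holds 0 GGAA and 1 GTAAACA, whose first base is at -223 from the start, and GTAAACA is found in 2.98% of all windows. None of the 3 windows holds GGAAGGAA, found in 3.06% of all windows. These matches describe letters in a window and were not tested for binding.

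HRK and BIK were the scarcest of the family. HRK (ENSG00000135116.9; chromosome 12, 116856144 to 116881441, minus strand) encodes Harakiri, a BH3-only protein best known from neurons deprived of growth factor. In TC-71 it went from 2.71, 3.14 and 2.95 CPM with siNeg to 4.09, 5.16 and 5.38 CPM with siFLI1, a log2 fold change of 0.75 (SE 0.147, adjusted p = 4.14e-05 in edgeR). In A673 it went from 1.20, 1.16 and 1.19 CPM to 3.08, 2.62 and 2.48 CPM, a log2 fold change of 1.21 (SE 0.113, adjusted p = 7.70e-08 in edgeR). Neither line had overlapping groups. In TC-32 the siNeg libraries held 0, 2 and 0 HRK counts and the siFLI1 libraries 16, 14 and 5, a ratio of depth-scaled counts of 14.5 with a 95% counting interval from 3.73 to 125. It did not pass the low-count filter of that line's fit.

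BIK (ENSG00000100290.2; chromosome 22, 43110750 to 43129712, plus strand) encodes a BH3-only protein of the endoplasmic reticulum. Its counts in TC-32 were 1, 0 and 0 with siNeg and 13, 18 and 11 with siFLI1, a ratio of 34.9 with a 95% counting interval from 5.93 to 1410, and it did not pass the filter either. In TC-71 they were 13, 7 and 17 against 25, 21 and 31, or 0.482, 0.355 and 0.589 CPM against 1.02, 0.802 and 0.834 CPM. The groups did not overlap and the log2 fold change was 0.85 (SE 0.329, adjusted p = 0.0223 in edgeR), but this call was lost with DESeq2 (0.86) and on leaving out siNeg replicate 1 (0.83), siNeg replicate 2 (0.69) or siFLI1 replicate 1 (0.75). In A673 the counts were 15, 27 and 31 against 12, 15 and 13. Those groups met at 15 counts, and the log2 fold change of -0.81 (SE 0.355, adjusted p = 0.0510 in edgeR) was not called, while it was called with library size alone (-0.91) and without siNeg replicate 1 (-1.06). At these counts, whether BIK was called in A673 depended on the setting and the libraries.

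PMAIP1 fell in TC-71, fell slightly in TC-32 and was not called in A673. PMAIP1 (ENSG00000141682.11; chromosome 18, 59899996 to 59904305, plus strand) encodes NOXA, which binds MCL1 and hastens its breakdown. Its level in TC-71 was 24.4, 23.7 and 26.1 CPM with siNeg and 15.3, 15.3 and 18.1 CPM with siFLI1, a clear separation with a log2 fold change of -0.60 (SE 0.0790, adjusted p = 7.80e-08 in edgeR). In TC-32 it was 20.9, 20.2 and 19.1 CPM against 18.5, 17.9 and 17.2 CPM. These groups lie close together without overlap, and the log2 fold change of -0.17 (SE 0.0734, adjusted p = 0.0386 in edgeR) was no longer called with library size alone (-0.12), with DESeq2 (-0.16) or without siNeg replicate 1 (-0.15), siNeg replicate 2 (-0.17) or siFLI1 replicate 3 (-0.15). In A673 it was 33.0, 32.9 and 31.9 CPM against 37.3, 32.7 and 35.4 CPM. siFLI1 replicate 2 lay among the siNeg libraries, the log2 fold change was 0.11 (SE 0.050, adjusted p = 0.0666 in edgeR), and without that library it was 0.16 and called.

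BID changed in opposite directions in TC-71 and A673. BID (ENSG00000015475.18; chromosome 22, 17734138 to 17774770, minus strand) encodes the protein that caspase-8 cuts to carry a death receptor signal to mitochondria. In TC-71 it fell from 31.8, 29.3 and 30.1 CPM to 25.1, 24.9 and 25.1 CPM, a log2 fold change of -0.28 (SE 0.0655, adjusted p = 0.000370 in edgeR). In A673 it rose from 31.9, 31.97 and 32.3 CPM to 40.9, 41.2 and 40.2 CPM, a log2 fold change of 0.35 (SE 0.0405, adjusted p = 1.08e-06 in edgeR). Replicates were tight in both lines, and neither pair of groups overlapped. TC-32 had 30.5, 29.6 and 30.2 CPM against 28.4, 28.5 and 27.9 CPM. Its siFLI1 libraries were all lower, but the log2 fold change of -0.09 (SE 0.0621, adjusted p = 0.179 in edgeR) was not called.

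BAD had small log2 fold changes in every line. BAD (ENSG00000002330.13; chromosome 11, 64269830 to 64284704, minus strand) encodes a BH3-only protein that survival kinases keep inactive by phosphorylation. In TC-32 it stood at 24.7, 25.2 and 26.9 CPM with siNeg and at 26.4, 35.3 and 29.9 CPM with siFLI1. siFLI1 replicate 2 was the high library and siFLI1 replicate 1 lay within the siNeg range; the log2 fold change of 0.26 (SE 0.0853, adjusted p = 0.00855 in edgeR) fell to 0.14 without siFLI1 replicate 2 and to 0.23 without siNeg replicate 1, in both cases no longer called. In A673 it stood at 10.98, 9.95 and 10.96 CPM against 11.5, 13.7 and 12.1 CPM, without overlap. The log2 fold change there was 0.23 (SE 0.0691, adjusted p = 0.00824 in edgeR), and it was not called with library size alone (0.12) or without siNeg replicate 2 (0.18). In TC-71 it stood at 28.3, 25.9 and 29.8 CPM against 34.8, 29.5 and 27.6 CPM, overlapping groups with a log2 fold change of 0.12 (SE 0.0778, adjusted p = 0.170 in edgeR), which was called without siFLI1 replicate 3 (0.20) and was 0.059 without siNeg replicate 2 and 0.023 without siFLI1 replicate 1. Exons of GPR137 lie opposite 23.7% of the BAD exon bases. GPR137 counts went from 467 to 549 up to 601 to 903 in TC-32, from 548 to 907 up to 954 to 1209 in TC-71 and from 1981 to 2125 to between 1570 and 2120 in A673, and their part in the BAD values was not tested.

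Levels of different genes were set side by side per length, as CPM per kilobase of exon. With siNeg, MCL1 led in each line, with 26.4 ± 0.474 CPM per kilobase for TC-32, 23.7 ± 0.819 for TC-71 and 30.0 ± 0.653 for A673 (SD, n = 3). The tables of the lines were quantified separately, with RSEM for TC-32 and A673 and Subread for TC-71, so only orders within a line are read. In TC-32 the order after MCL1 was BMF (17.6), BAD (15.0), BCL2L1 (10.2), PMAIP1 (9.18), BID (6.81), BCL2L11 (2.51) and BCL2 (1.96), whose libraries did not overlap between neighbours on this scale, then BIK and HRK, which overlapped near 0. In TC-71 it was BAD (16.4), PMAIP1 (11.3) and BCL2L1 (11.1), BMF (7.72) and BID (6.87), BCL2 (1.99) and BCL2L11 (1.78), BIK (0.500) and HRK (0.428), where each of the pairs joined by "and" overlapped. In A673 it was BCL2L1 (19.2), PMAIP1 (14.9), BMF (9.27), BID (7.25), BAD (6.22), BCL2 (4.28) and BCL2L11 (1.14), again without overlap, then BIK and HRK, which overlapped. With siFLI1, BMF stood first in TC-32 (37.2, MCL1 33.7) and second in TC-71 (39.8, MCL1 46.1), and sixth in A673 (5.94, MCL1 41.0). With the length of the longest transcript in place of all exon bases, MCL1 (46.1) came before BMF (43.2) in TC-32 with siFLI1. That length also changed the order with siNeg below MCL1. In TC-32 BAD (22.1) came before BMF (20.5) and BID (12.1) before PMAIP1 (10.6), while BCL2 (3.31) and BCL2L11 (3.27) overlapped. In TC-71 BCL2L1 (14.4), PMAIP1 (13.0) and BID (12.2) each overlapped the next, BMF (8.96) lay below BID without overlap, and BCL2 (3.37) and BCL2L11 (2.32) no longer overlapped. In A673 BID (12.8) came before BMF (10.8). The order of these neighbours therefore depends on the length used.

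The pro-survival transcripts summed to a higher level with siFLI1 in all 3 lines, and so did the BH3-only transcripts in TC-32 and TC-71, with a small difference in A673. The pro-survival sum went from 38.6 ± 0.514 to 50.2 ± 0.700 CPM per kilobase for TC-32, from 36.9 ± 0.373 to 64.7 ± 0.977 for TC-71 and from 53.5 ± 0.389 to 81.2 ± 0.490 for A673 (SD, n = 3). The BH3-only sum went from 51.2 ± 0.0640 to 76.2 ± 4.16 for TC-32, from 45.0 ± 2.37 to 78.4 ± 1.86 for TC-71 and from 39.2 ± 0.500 to 40.6 ± 0.462 for A673. For A673 the TMM factors were 1.035 to 1.038 with siNeg and 0.963 to 0.968 with siFLI1. The direction of the small A673 difference therefore depends on this scaling. The ratio of pro-survival to BH3-only transcripts in A673 was 1.36, 1.39 and 1.35 with siNeg and 1.99, 1.97 and 2.03 with siFLI1, well apart, a log2 change of 0.55. In TC-32 it was 0.745, 0.758 and 0.763 against 0.701, 0.623 and 0.655, lower in all siFLI1 libraries, a log2 change of -0.20 that became 0.16 when BMF was left out of the BH3-only sum. In TC-71 it was 0.815, 0.868 and 0.778 against 0.793, 0.856 and 0.828. These overlap, and the log2 change was 0.0099, or 0.76 without BMF. Since the genes were chosen with results of these data known, the ratios carry no test, and they weigh transcripts, not proteins.

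**Figure D3:**
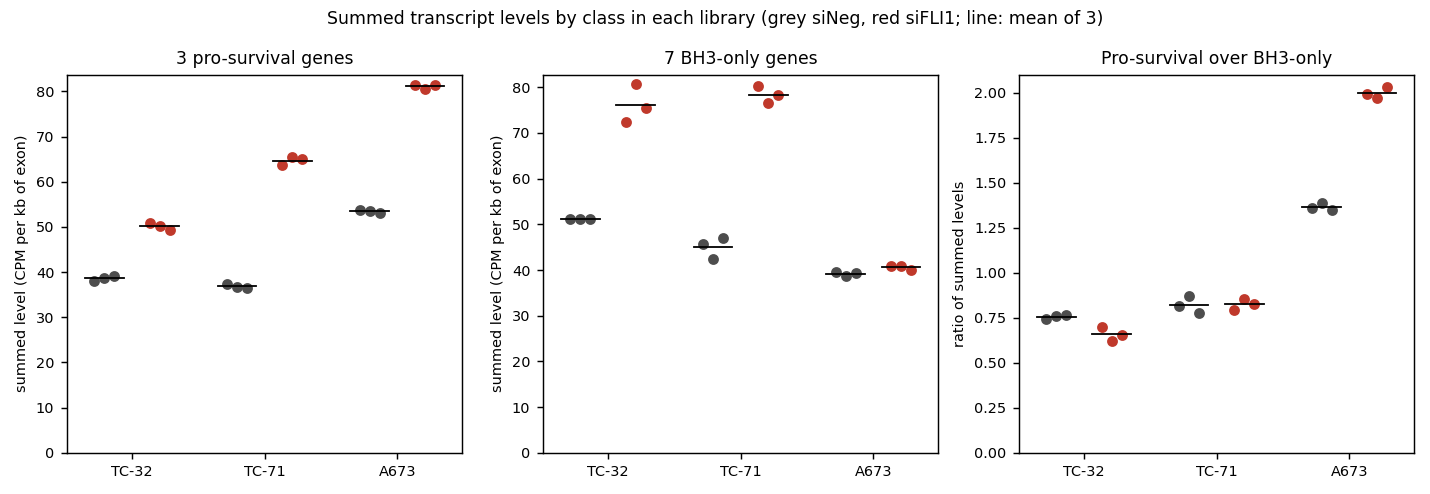
Summed level of the pro-survival genes and of the BH3-only genes in CPM per kilobase of exon, and their ratio (vertical axes, from 0), in each library, grey for siNeg and red for siFLI1, with lines at the means. In A673 the ratio goes from 1.36 to 2.00 while the BH3-only sum goes from 39.2 to 40.6; in TC-71 both sums are higher with siFLI1 and the ratios overlap.

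Within the BH3-only sum, the share of BMF moved most in each line. It went from 34.5% ± 0.519 to 48.8% ± 0.355 for TC-32 and from 17.1% ± 0.556 to 50.7% ± 1.11 for TC-71, and from 23.7% ± 0.321 to 14.6% ± 1.13 for A673 (SD, n = 3). The share of PMAIP1 went from 17.9% to 10.8% for TC-32 and from 25.2% to 9.47% for TC-71, and from 38.1% to 39.5% for A673, where it was the largest BH3-only share with either siRNA. In the sum of the 3 chosen pro-survival genes, MCL1 held 68.4% for TC-32, 64.3% for TC-71 and 56.1% for A673 with siNeg. With siFLI1 it held 67.3%, 71.3% and 50.4%. BCL2L1 went from 35.9% to 45.6% for A673, and BCL2 from 5.06% to 1.74% for TC-32, from 5.41% to 2.83% for TC-71 and from 8.01% to 3.95% for A673.

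**Figure D4:**
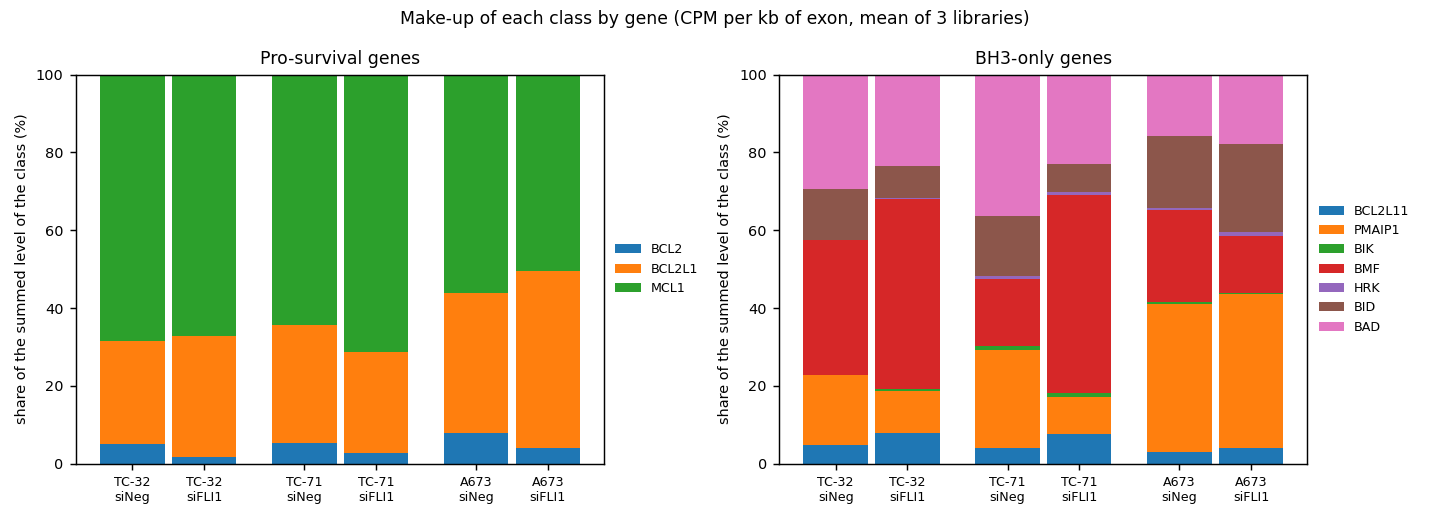
Share of each gene in the summed level of its class (stacked bars, %, mean of 3 libraries), pro-survival genes at left and BH3-only genes at right, by line and siRNA. The BMF segment widens from 17.1% to 50.7% for TC-71 and from 34.5% to 48.8% for TC-32, and narrows from 23.7% to 14.6% for A673.

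Whether siFLI1 acted differently in the lines was tested for each gene by an interaction contrast in one model of all 18 libraries, which gave 30 tests over 10 genes and 3 pairs of lines. In each pair 8 of the 10 genes differed, beside 62.1% of all genes tested for TC-32 and A673, 53.6% for TC-32 and TC-71 and 51.6% for A673 and TC-71. For both pairs with TC-32 the 8 include BIK and HRK, which failed the low-count filter of that line at 0 to 2 siNeg counts per library and entered the joint model through the other lines; of the other 8 genes, 6 differed in each of these pairs. The 3 pairs share libraries and are not independent. FLI1 itself differed in each pair too (largest edgeR adjusted p = 6.67e-05). Its differences, first line minus second, were 1.08 for TC-32 and A673, 0.43 for TC-32 and TC-71 and -0.65 for A673 and TC-71. The lines also differ in depth, medium or quantification, and the A673 columns carry no time. The part of these in the differences between lines was not tested. BMF had the largest differences among genes with ample counts: its log2 fold change in A673 was lower than in TC-71 (difference -3.03, SE 0.0776, edgeR adjusted p = 4.62e-26) and that in TC-32 was higher than in A673 (difference 1.74, SE 0.0747, 2.35e-20). For BID, the difference of 0.60 between A673 and TC-71 (SE 0.0710, adjusted p = 9.10e-09 in edgeR) goes with calls in opposite directions. BCL2 fell more for TC-32 than for TC-71 (difference -1.06, SE 0.118, edgeR adjusted p = 2.43e-09), and MCL1 rose more for TC-71 than for A673 (A673 minus TC-71 -0.55, SE 0.0566, 4.51e-10). BAD was the gene for which no pair differed, with differences from 0.059 to 0.13 (edgeR adjusted p from 0.413 to 0.716), and BCL2L1 did not differ between TC-32 and TC-71 (0.015, SE 0.0744, edgeR adjusted p = 0.921). MCL1 between TC-32 and A673 (-0.071, edgeR adjusted p = 0.289) and HRK between A673 and TC-71 (0.42, edgeR adjusted p = 0.122) were not called either.

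Beyond these 10 genes, counts of listed genes are to be read beside the shares of all tested genes called higher and lower, 41.3% and 40.1% for TC-32, 36.8% and 35% for TC-71 and 35.6% and 35.4% for A673. Of 14 other BCL2 family genes listed, 10 were tested in TC-32 (3 higher, 4 lower, 3 not called), 11 in TC-71 (4 higher, 6 lower, 1 not called) and 12 in A673 (4 higher, 5 lower, 3 not called). BAX, an effector that opens the membrane, fell in TC-32 (58.5 ± 4.35 to 38.5 ± 3.02 CPM, log2 fold change -0.60, edgeR adjusted p = 1.26e-08) and in TC-71 (51.2 ± 1.91 to 40.5 ± 2.74 CPM, -0.34, 1.08e-05). In A673 it was 40.4 ± 1.20 and 40.5 ± 3.39 CPM and not called (0.0052, 0.939). BAK1, the other main effector, was not called in TC-32 (-0.024, edgeR adjusted p = 0.757), was lower in TC-71 (-0.22, 0.00182) and higher in A673 (0.39, 3.23e-06). BOK, a BAX-like gene, rose in all 3, with log2 fold changes of 0.91, 1.02 and 1.40 (largest edgeR adjusted p = 3.34e-10). BBC3, the BH3-only gene of PUMA, rose in TC-32 (5.88 ± 0.524 to 12.3 ± 0.688 CPM, 1.07, edgeR adjusted p = 7.31e-10) and fell in A673 (1.02 ± 0.0447 to 0.768 ± 0.103 CPM, -0.41, 0.0210). In TC-71 its 0.31 was not called (0.0772). The pro-survival gene BCL2L2 (BCL-w) fell in TC-32 (-0.23, edgeR adjusted p = 0.00148) and A673 (-0.28, 1.87e-05) and rose in TC-71 (0.22, 0.00118). BCL2A1 held 0 to 6 counts in any library and was untested. BCL2L10 was tested in A673 alone, where 5 to 10 counts became 25 to 32 (log2 fold change 2.02, SE 0.362). At so few siNeg counts it may have passed the low-count filter only through the siFLI1 libraries, so no p is given. BCL2L12 fell in all 3 lines, with log2 fold changes of -1.05, -1.16 and -0.33 (largest edgeR adjusted p = 0.000138).

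**Figure D5:**
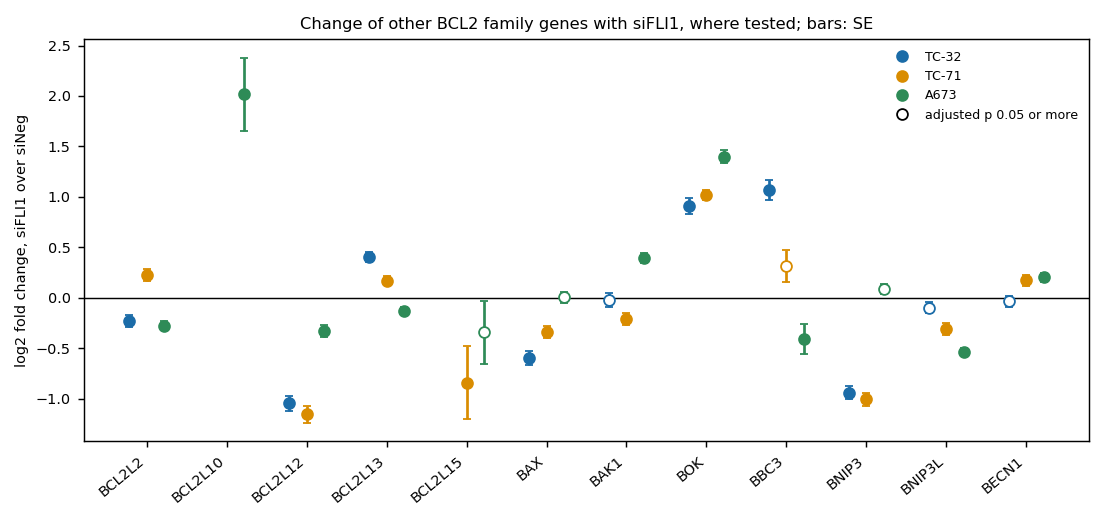
Log2 fold change, siFLI1 over siNeg (vertical axis), with its SE, of the other BCL2 family genes that were tested, in TC-32 (blue), TC-71 (orange) and A673 (green); open points were not called. BOK lies above 0 in all 3 lines and BCL2L12 below 0, while BBC3 goes from 1.07 in TC-32 to -0.41 in A673.

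Downstream of the mitochondria, the list of 14 genes of the apoptosome, caspases and inhibitor of apoptosis proteins was tested in full. In TC-32 4 were higher, 9 lower and 1 not called, in TC-71 5, 7 and 2, and in A673 5, 7 and 2, with medians of -0.41, -0.16 and -0.098, where 40.1%, 35% and 35.4% of all tested genes were lower. The genes of this list with the largest changes were BIRC3, an inhibitor of apoptosis induced by NF-kappaB (log2 fold changes of 4.73, -0.89 and 3.87 for TC-32, TC-71 and A673), and BIRC5, which encodes survivin, a mitotic protein (-3.24, -1.77 and -1.24). Of 13 death receptor genes, 8 were higher, 1 lower and 2 not called of 11 tested in TC-32, 6, 3 and 2 of 11 in TC-71, and 8, 2 and 0 of 10 in A673, with medians of 0.43, 0.46 and 0.46, where 41.3%, 36.8% and 35.6% of all tested genes were higher. Named from this list were CASP10, an initiator caspase (2.61, -0.38 and -0.73), and CFLAR, whose product FLIP restrains caspase-8 (1.48, 0.87 and 0.49). In TC-32 CASP10 held 2 to 7 counts per library with siNeg and 21 to 39 with siFLI1, so its 2.61 (SE 0.433) is imprecise.

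For the upstream lists, 15 genes of the p53 response, which include BAX, BBC3, FAS and TNFRSF10B of the lists above, gave 10 higher, 4 lower and 1 not called in TC-32, 7, 7 and 1 in TC-71, and 3, 6 and 6 in A673, with medians of 0.47, 0.26 and -0.020, beside the same shares of all tested genes. CDKN1A, the cyclin-dependent kinase inhibitor p21, rose from 35.2 ± 1.38 to 318 ± 11.6 CPM in TC-32, from 12.9 ± 0.571 to 61.6 ± 1.29 CPM in TC-71 and from 19.1 ± 0.502 to 39.8 ± 0.902 CPM in A673 (log2 fold changes of 3.18, 2.25 and 1.06, largest edgeR adjusted p = 2.59e-12). GDF15, a secreted stress factor, went from 1 to 9 counts up to 273 to 465 in TC-32 and from 0 to 2 up to 19 to 35 in TC-71, and fell by 0.39 on the log2 scale in A673. Of 14 regulators of BH3-only genes, 6 were higher, 7 lower and 1 not called in TC-32, 7, 6 and 1 in TC-71, and 8, 6 and 0 in A673, with medians of -0.072, 0.21 and 0.21. E2F1, a cell cycle factor, fell in all 3 (-3.79, -2.30 and -1.12), and the stress factor ATF3 rose in all 3 (3.12, 0.82 and 2.59; largest edgeR adjusted p over both genes = 5.12e-08).

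As a description of which transcripts ran alongside, log2 CPM was centred within each line and correlated over the 18 libraries with 10907 expressed genes. The points share the siRNA contrast, library and depth, so high values are common and no p is given. BCL2L11 ran closest to SRGAP1 (r = 0.996) and LHFPL2 (0.992), BMF to FOXP1 (0.992) and RP11-715J22.6 (0.990), MCL1 to STK38L and RBMS1 (both 0.995) and BCL2L1 to QSOX1 (0.995) and FLII (0.994). FOXP1 had the directions of BMF, with log2 fold changes of 0.71 for TC-32, 1.55 for TC-71 and -0.55 for A673. BCL2 ran closest to DUSP12 (0.979) and MSH3 (0.971), PMAIP1 to RALGPS2 (0.966) and NBPF9 (0.956), BID to ANKS6 and SKP2 (both 0.974), and BAD less closely to NAPRT (0.924) and AP2A1 (0.913). Among the 8 family genes tested in every line, the highest r was that of MCL1 with BCL2L11 (0.948), and the lowest that of PMAIP1 with BMF (-0.925), a BH3-only pair.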

How the data were processed

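Messenger RNA libraries were made with a stranded kit, per the labels' protocols. The authors deposited expected counts from RSEM for TC-32 and A673, and counts from Subread for TC-71, going by the names of the tables; neither is scaled to depth. The submitters' processing notes name cutadapt 4.4, STAR 2.7.3, Subread 2.0.3, featureCounts, limma 3.38.3 and the build GRCh38/hg38. The strand setting and annotation release are not given in the sources used here. The line of the TC-32 and TC-71 columns comes from the table's name. Depth was 19685354 to 120993595 counts per library. No library was counted as a repeat: chi-square per degree of freedom was at least 2.52 in all 18 pairs of replicates, and r of log2 CPM at least 0.991.

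Expected counts were rounded. Separate fits per line used edgeR 4.0.16 in R 4.3.3 (filterByExpr by group, TMM scaling, robust dispersions, quasi-likelihood F-test, two-sided), with Benjamini-Hochberg adjustment over all genes tested and calls at an adjusted p under 0.05. Log2 fold changes use a prior count of 0.125, and standard errors come from the unshrunken coefficients. Differences between lines were interaction contrasts in one model of 6 group means. CPM are TMM-scaled, and levels per length use the union of GENCODE 44 exons. For BIK and HRK in TC-32, summed counts are compared with an exact 95% interval that covers counting error only. The fits were also run on simulated counts with far fewer changed genes than were called here. That run cannot check the scaling or the calls where most genes change.

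The family genes and the 5 further gene lists were chosen with earlier results of these data known. Named are all 10 family genes; from the other BCL2 family list, the effectors, pro-survival genes and BBC3; from each list, the 2 genes with the largest mean absolute change among those called in all 3 lines; genes called oppositely in 2 lines with at least 1 log2 unit in both (0 were found); and for each family gene tested in every line the 2 most correlated genes of mean log2 CPM of at least 1. Alternatives were DESeq2 1.42.0, limma 3.58.1 with voom, RLE scaling, scaling by library size alone, dropping the low-count filter or asking for a mean of 10 counts, unrounded counts, the replicate number as a block, each library left out, only the 12 libraries of a pair of lines, and transcript length. A sum without BMF and the ratio with transcript length were added after the data were seen. ES-5838 and siERG, named in the series text, are not analysed here.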

Additional observations from a re-analysis of the deposited data

Results flagged for a closer look

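Called differences of the siFLI1 effect between lines are given here for pairs where the gene passed the low-count filter of both lines. The values are differences of log2 fold changes, with the first line minus the second, and the pairs of lines share libraries. Over all genes tested, 62.1% differed for TC-32 and A673, 53.6% for TC-32 and TC-71 and 51.6% for A673 and TC-71. FLI1 itself differed in each pair too, as given above. BCL2 differed by -0.74 between TC-32 and A673 (edgeR adjusted p = 3.68e-07), by -1.06 between TC-32 and TC-71 (2.43e-09) and by -0.32 between A673 and TC-71 (0.00781), so its fall was largest in TC-32. BCL2L1 differed by -0.32 between TC-32 and A673 (edgeR adjusted p = 0.000158) and by 0.33 between A673 and TC-71 (0.000113), with the larger rise in A673. MCL1 differed by -0.62 between TC-32 and TC-71 (edgeR adjusted p = 3.90e-11) and by -0.55 between A673 and TC-71 (4.51e-10), with the larger rise in TC-71.

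Among BH3-only genes, BMF differed by 1.74 between TC-32 and A673 (edgeR adjusted p = 2.35e-20), by -1.29 between TC-32 and TC-71 (5.07e-16) and by -3.03 between A673 and TC-71 (4.62e-26). BCL2L11 differed by 0.76 (edgeR adjusted p = 2.36e-08), -0.51 (8.46e-05) and -1.27 (5.96e-13) in the same order of pairs. PMAIP1 differed by -0.25 (edgeR adjusted p = 0.0197), 0.43 (0.000722) and 0.68 (1.44e-07), and BID by -0.41 (4.52e-06), 0.18 (0.0448) and 0.60 (9.10e-09). The values of PMAIP1 between TC-32 and A673 and of BID between TC-32 and TC-71 lost their calls under other settings given below. BIK differed by -1.69 between A673 and TC-71 (edgeR adjusted p = 0.00441).

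Kept apart are the values that involve BIK or HRK in TC-32, where neither passed the filter. BIK differed by 5.74 between TC-32 and A673 (edgeR adjusted p = 8.09e-07) and by 4.05 between TC-32 and TC-71 (0.000682), and HRK by 2.58 (0.00814) and 3.00 (0.00230). These rest on 0 to 2 siNeg counts per library in TC-32, so their sizes depend on the prior count. Without TC-32 siNeg replicate 1 the values of BIK became 8.67 and 6.97, over ranges of 5.18 to 8.67 and 3.48 to 6.97 on leaving out each library. Without TC-32 siNeg replicate 2 the values of HRK became 6.40 and 6.81, over ranges of 2.06 to 6.40 and 2.47 to 6.81.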

How the results depend on the processing

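Of 382 alternative values of family genes within a line, 363 kept direction and side of the threshold, 14 lost and 5 gained a call (all in PMAIP1, BAD, BIK and BCL2) and 0 reversed. Of 810 values between lines, 775 were kept, 24 lost a call, 2 gained one (MCL1 between TC-32 and A673, -0.14, and HRK between A673 and TC-71, 0.49, both with only the 12 libraries of the pair) and 9 reversed. The reversals were all of uncalled differences near 0: MCL1 between TC-32 and A673 with library size alone (0.051), BAD between TC-32 and A673 with only the 12 libraries (-0.010) and without TC-32 siFLI1 replicate 2 (-0.047), BAD between A673 and TC-71 without 1 library (-0.013 and -0.0065) and BCL2L1 between TC-32 and TC-71 without 1 library (-0.029, -0.018, -0.017 and -0.013, in a range of -0.029 to 0.049). The cause was not tested. The difference of BID between TC-32 and TC-71 (adjusted p = 0.0448) lost its call without the low-count filter (0.23), with the replicate block (0.18) and on leaving out any library but TC-71 siNeg replicate 2 (0.14 to 0.21). PMAIP1 between TC-32 and A673 lost it with library size alone (-0.13) and without TC-32 siNeg replicate 1, TC-32 siFLI1 replicate 3, A673 siNeg replicate 3 or A673 siFLI1 replicate 1 (-0.29 to -0.21 over all libraries left out).

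With library size alone the pro-survival median moved to 0.40 in TC-32 and 0.35 in A673 and the BH3-only median in A673 to 0.12. The BH3-only median in TC-32 became 1.06 with no low-count filter and 0.14 to 1.08 on leaving out a library, where BIK, HRK or both came to be tested in some of these settings. The log2 change of the pro-survival to BH3-only ratio without BMF was 0.16, 0.76 and 0.39 in TC-32, TC-71 and A673. Transcript length gave -0.16, 0.097 and 0.49 in the same order of lines. On leaving out a library the change with BMF ranged from -0.24 to -0.16 in TC-32. It ranged from -0.027 to 0.052 in TC-71, which includes both directions, and from 0.54 to 0.56 in A673. The level of MCL1 with siNeg became 36.1, 32.4 and 41.0 CPM per kilobase of the longest transcript in TC-32, TC-71 and A673.

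Samples with the same replicate number showed no shared deviation (r from -0.0784 to 0.0422), and the main fits do not pair them. Each r rests on deviations from the mean of 3 libraries, so it cannot show whether samples were prepared together. The replicate block gave 13053, 12048 and 12467 called genes in TC-32, TC-71 and A673, beside 13203, 12283 and 13096. It moved PMAIP1 in TC-32 to an adjusted p of 0.0525 (-0.17). Few counts of BIK (0 to 31 per library over the 3 lines) and of HRK in TC-32 (0 to 16) limit their precision.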
